A study of Mus musculus with 12 samples.

Results

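Interferon regulatory factors (IRFs) are transcription factors that share a DNA-binding domain for GAAA repeats in interferon-stimulated promoters. Their RNA was followed in B16-F10 mouse melanoma cells that carry Cas9, with and without the splicing regulators MBNL1 and MBNL2 targeted, and with and without interferon gamma (IFNγ). The genes were taken by symbol from the expression matrix: *Irf1*, *Irf2*, *Irf3*, *Irf4*, *Irf5*, *Irf7*, *Irf8* and *Irf9*, 8 of the 23022 listed genes. IFNγ acts through its receptor, the kinases JAK1 and JAK2 and STAT factors, and *Irf1* is a classical direct target of that pathway. IRF1 then activates antigen presentation genes, IRF2 competes with it for the same DNA, and IRF9 is the DNA-binding subunit of the complex ISGF3, which also holds STAT2. IRF3, IRF5 and IRF7 are activated by phosphorylation downstream of nucleic acid sensors and Toll-like receptors, IRF8 is a factor of myeloid and B cells, and IRF4 serves lymphocytes and the pigment cell programme.

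RNA-seq covered 12 libraries in 4 groups of 3. NTC cells, labelled as a no template control, received a non-targeting control guide according to the study. They were left untreated or given IFNγ at 1 ng/mL for 24 h. DKO cells, with guides against both *Mbnl1* and *Mbnl2*, were handled the same way. All groups derive from 1 Cas9-expressing clone of the B16-F10 line and were polyclonal after guide transduction and puromycin selection, so a DKO population can hold unedited cells. Nothing in the labels says that replicates were separate transductions, so the p-values measure the spread between these libraries only. Values are TPM, an estimate of each gene's transcripts as a share of its library corrected for gene length, which keep no read depth. The listed genes of a library summed to 805782 to 827191 TPM in DKO cells and to 844185 to 874612 TPM in NTC cells. *Mbnl1* RNA was still present in DKO cells, at 41.1 to 47.5 TPM against 55.6 to 63.9 TPM in NTC cells, and *Mbnl2* stood at 83.9 to 98.0 TPM against 99.2 to 107 TPM. Both were lower in untreated DKO than in untreated NTC libraries by limma, *Mbnl1* by −0.41 on the log2 scale (adjusted p = 2.54e-05) and *Mbnl2* by −0.20 (adjusted p = 0.00937). Pigment cell genes were abundant as a sum, with the 15 listed adding up to 14836 TPM or more in every library. Of 14 leukocyte markers, 7 were listed at 0 in all 12 libraries (*Ptprc*, *Cd3e*, *Cd8a*, *Ms4a1*, *Emr1*, *Itgax* and *Ncr1*). *Cd68*, *Csf1r*, *Lyz2* and *Flt3* were above 0 in all 12, at up to 6.49, 0.307, 1.32 and 1.96 TPM, and *Cd79a*, *Cd4* and *Itgam* in 11, 9 and 1 of them.

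Differences were fitted with limma on log2(TPM + 1) for the 11663 genes that reached 1 TPM in at least 3 libraries, and adjusted by the Benjamini-Hochberg method over all of them. Called means an adjusted p under 0.05. The comparisons share groups of libraries and are not independent of each other. Of the 8 *Irf* genes, 6 entered the fit. *Irf4* and *Irf8* never reached 1 TPM, and *Irf5* entered with 4 libraries at or above it.

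*Irf1* and *Irf9* were the induced members in both genotypes, with ratios of mean TPM between 1.98 and 2.85. *Irf3*, the most abundant member without treatment, was lower with IFNγ in NTC cells. *Irf1* and *Irf3* were higher in DKO than in NTC cells whether or not IFNγ was given, and *Irf9* was higher in DKO cells without it. *Irf2*, *Irf5* and *Irf7* did not pass the test in any comparison. In NTC cells 3 of the 6 tested members were called for IFNγ, 2 higher and 1 lower, where 12.1% of all tested genes were called (7.31% higher and 4.78% lower). That share ran from 2.74%, without treated NTC replicate 3, to 17.3%, without treated DKO replicate 2, and was 2.87%, 3.38% and 2.98% without treated NTC replicate 2, untreated NTC replicate 2 and untreated NTC replicate 3. It was 5.56% without a filter and 4.44% after subtraction of a trend on GC content and gene length, an alternative added once the data had been seen. In DKO cells 2 members were called, both higher, where 0.78% of all tested genes were called and 0.677% were higher.

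**Figure D1:**
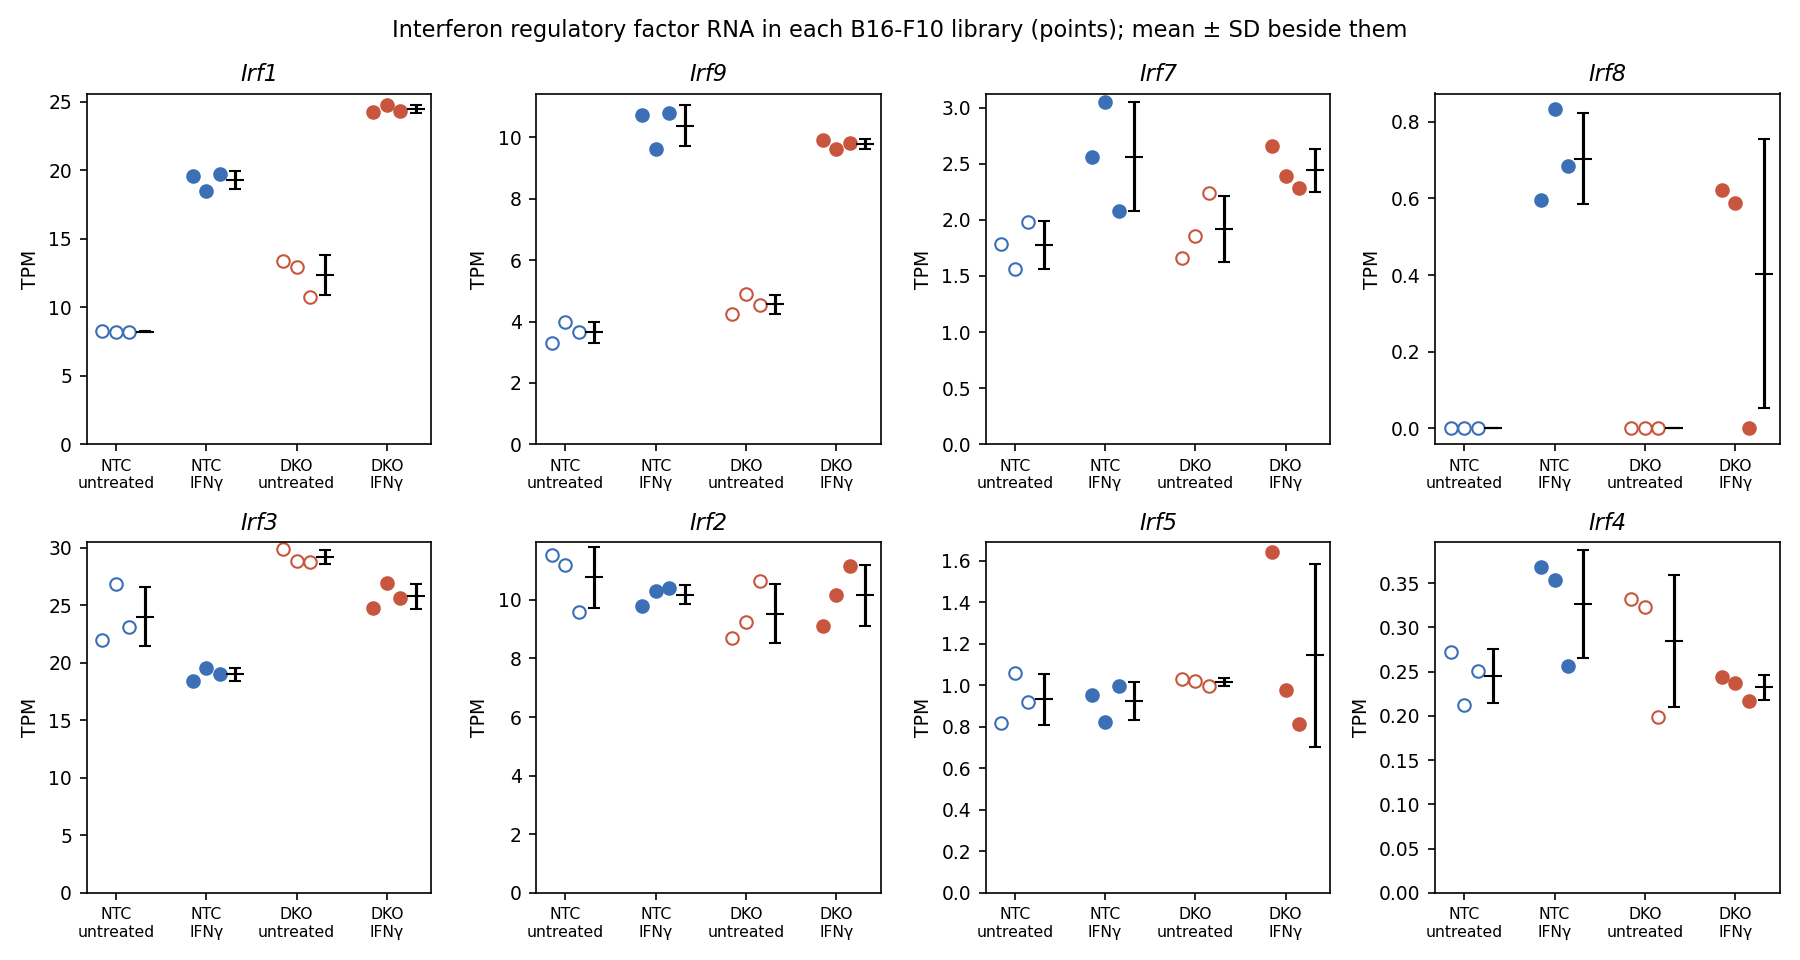
TPM of each *Irf* gene (vertical axes, 1 scale per gene) in every library of the 4 groups on the horizontal axis: blue for NTC, red for DKO, open circles untreated, filled circles with IFNγ, bars for mean ± SD of 3 libraries. *Irf1* and *Irf9* rise in both genotypes, the 3 untreated *Irf1* values are between 10.7 and 13.4 TPM in DKO and near 8.2 TPM in NTC, and *Irf8* is above 0 in 5 libraries, all with IFNγ.

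*Irf1* (ENSMUSG00000018899, chromosome 11, 53770014 to 53778374, plus strand of GRCm38) measured 8.24, 8.19 and 8.20 TPM in untreated NTC libraries and 19.6, 18.5 and 19.7 TPM in NTC libraries with IFNγ. In DKO libraries it measured 13.4, 12.96 and 10.7 TPM untreated and 24.3, 24.8 and 24.3 TPM with IFNγ. The 4 groups did not overlap, in the order untreated NTC, untreated DKO, treated NTC and treated DKO. The log2 difference with IFNγ was 1.14 in NTC (SE 0.0712, adjusted p = 2.1e-07), a 2.35-fold ratio of mean TPM, which ranked 40 of the 11663 tested genes. In DKO it was 0.93 (SE 0.0712, adjusted p = 2.2e-06), a 1.98-fold ratio and rank 41. On the linear scale the gain was 11.1 TPM in NTC and 12.1 TPM in DKO.

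DKO cells held more *Irf1* RNA before treatment, by 0.53 on the log2 scale (SE 0.0712, adjusted p = 7.83e-05). The difference remained with IFNγ, at 0.33 (adjusted p = 0.00235). Untreated, 3 of the 6 tested members were called between DKO and NTC, all higher in DKO, where 36.4% of all tested genes were called and 17.0% were higher in DKO. With IFNγ 2 members were called, both higher in DKO, where 43.3% of tested genes were called and 19.5% were higher. Such calls were thus common among all genes. Libraries of the 2 genotypes did not overlap for 3 of the 6 members untreated and for 2 with IFNγ, beside 51.6% and 49.9% of all tested genes. These 4 *Irf1* differences stayed called in each of 19 alternative fits. The difference of the responses, DKO minus NTC, was −0.20 (95% interval −0.42 to 0.01, adjusted p = 0.451), so whether the responses differed was not resolved.

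The promoter of *Irf1* is shown because STAT factors bind palindromes of the form TTCNNNGAA, which were searched in RefSeq windows from 250 bases before to 50 bases after each annotated start. All 8 members had a window, 11 in all. TTCNNNGAA, which reads the same on both strands, occurred in 3 of the 11 windows (27.3%), 1 each of *Irf1*, *Irf2* and *Irf8*, and in 8.30% of all 32851 windows. A GAAA repeat of the kind IRFs bind, 2 copies of GAAA with any 2 bases between, was searched on both strands and occurred in 1 of the 11 windows (9.09%), that of *Irf2*, and in 3.44% of all windows. In *Irf1* the match lay 90 to 82 bases before the start. The sequences are from GRCm38, plus strand, 5′ to 3′, with matched motifs in capitals, at chr11:53769894-53769962 for *Irf1*, chr8:120736157-120736243 for *Irf8* and chr8:46739495-46739559 for *Irf2*.
Irf1: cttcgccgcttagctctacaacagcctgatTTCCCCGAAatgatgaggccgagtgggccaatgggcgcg
Irf8: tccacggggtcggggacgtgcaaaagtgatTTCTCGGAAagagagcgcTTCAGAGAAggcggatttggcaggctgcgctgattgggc
Irf2: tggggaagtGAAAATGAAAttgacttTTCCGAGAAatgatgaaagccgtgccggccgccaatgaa
The *Irf8* window holds TTCNNNGAA at 2 places, and the *Irf2* window holds the GAAA repeat followed by TTCNNNGAA without overlap. A match describes the letters and not binding.

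*Irf9* (ENSMUSG00000002325, chromosome 14, 55603571 to 55610030, plus strand) measured 3.30, 3.98 and 3.67 TPM in untreated NTC libraries and 10.7, 9.62 and 10.8 TPM with IFNγ. The DKO libraries gave 4.25, 4.89 and 4.55 TPM untreated and 9.93, 9.62 and 9.82 TPM with IFNγ. Treated and untreated libraries did not overlap in either genotype, and the treated libraries of the genotypes overlapped. Its response was 1.29 in NTC (SE 0.0786, adjusted p = 1.59e-07) and 0.96 in DKO (SE 0.0786, adjusted p = 5.43e-06), 2.85-fold and 2.15-fold as ratios of mean TPM. The gain in TPM was 6.74 in NTC and 5.23 in DKO.

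No member was called for a difference of responses, where 0.0343% of tested genes, 4 of 11663, were called. At an unadjusted p under 0.05, 1 member was counted, beside 11.5% of all tested genes. That member was *Irf9*, at −0.34 (95% interval −0.58 to −0.10, unadjusted p = 0.00969, adjusted p = 0.377). Without IFNγ, *Irf9* was higher in DKO by 0.26 (SE 0.0786, adjusted p = 0.0197). It no longer passed when untreated NTC replicate 1 was left out (0.20, adjusted p = 0.0847) or untreated DKO replicate 2 (0.22, adjusted p = 0.0787), and it held in the other 17 of 19 alternatives, with adjusted p from 0.0105 to 0.0847 over all of them. With IFNγ the difference was −0.08 (adjusted p = 0.464). *Irf9* shares 123 bases with *Rnf31* on the same strand, and *Rnf31* was not called in any of the 5 comparisons.

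**Figure D2:**
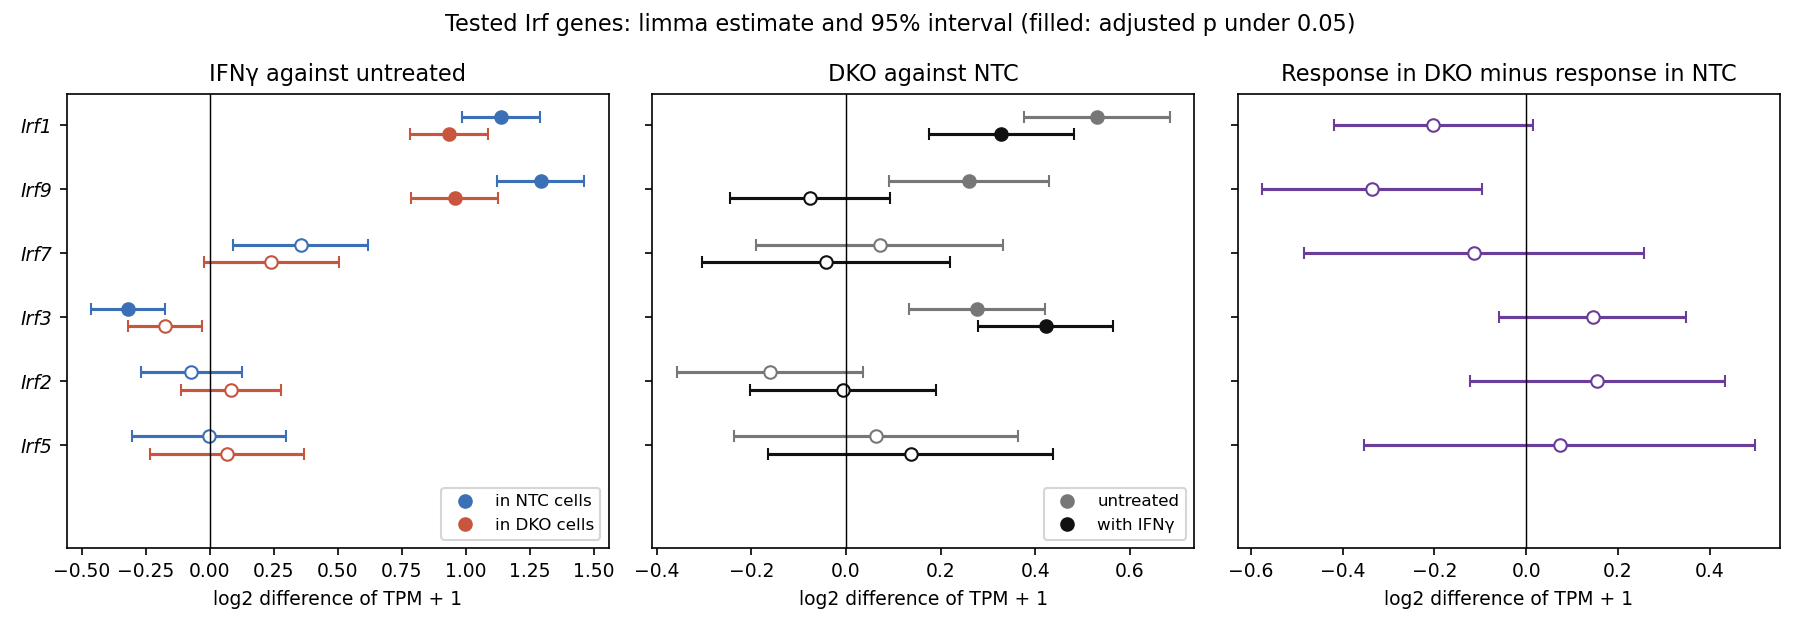
Limma log2 differences of TPM + 1 (horizontal axes) with 95% intervals for the 6 tested *Irf* genes (rows): response to IFNγ in NTC and DKO, DKO against NTC untreated and with IFNγ, and the difference of responses; filled points have an adjusted p under 0.05. *Irf1* and *Irf9* stand near 1 in both genotypes, *Irf3* is below 0 with IFNγ and above 0 in DKO, and no point is filled in the right panel.

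*Irf3* (ENSMUSG00000003184, chromosome 7, 44997648 to 45002848, plus strand) was the most abundant member without treatment. It measured 22.0, 26.9 and 23.1 TPM in untreated NTC libraries and 18.4, 19.5 and 19.0 TPM in NTC libraries with IFNγ. Values in DKO were 29.9, 28.9 and 28.7 TPM untreated and 24.8, 26.9 and 25.6 TPM with IFNγ. Treated libraries lay below untreated libraries of their own genotype, and DKO lay above NTC under each treatment. Its response in NTC was −0.32 (SE 0.0666, adjusted p = 0.0139). With the trend on GC content and length subtracted it was −0.22 and no longer called (adjusted p = 0.0605), and it was called in the other 18 of 19 alternatives, with adjusted p from 0.00985. In DKO the response was −0.17 and did not pass (unadjusted p = 0.0213, adjusted p = 0.400). The responses differed by 0.14 (95% interval −0.06 to 0.35, adjusted p = 0.544).

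Between genotypes, *Irf3* was higher in DKO by 0.28 untreated (SE 0.0666, adjusted p = 0.00543) and by 0.42 with IFNγ (adjusted p = 0.000242), and both held in all 19 alternatives. *Irf3* overlaps *Bcl2l12*, an apoptosis regulator of the BCL2 family, over 1065 bases on the opposite strand. The libraries are unstranded, so reads in that stretch cannot be assigned to 1 gene by strand. *Bcl2l12*, at 9.19 to 16.2 TPM, also differed with IFNγ in NTC, by −0.36 (adjusted p = 0.0353), and between genotypes with IFNγ, by 0.44 (adjusted p = 0.00287). It did not pass with IFNγ in DKO (−0.06, adjusted p = 0.899) or between untreated genotypes (0.14, adjusted p = 0.282). The part of the shared stretch in the *Irf3* values was not tested.

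*Irf7* (ENSMUSG00000025498, chromosome 7, 141262706 to 141266481, minus strand), the factor that amplifies type I interferon production, was low throughout. Its untreated NTC libraries gave 1.78, 1.56 and 1.98 TPM, and those with IFNγ 2.56, 3.05 and 2.08 TPM. DKO libraries gave 1.66, 1.86 and 2.24 TPM untreated and 2.65, 2.39 and 2.28 TPM with IFNγ. Every treated library was above every untreated library of its genotype, which was so, in either direction, for 4 of the 6 tested members and 36.6% of all tested genes in NTC, and for 4 members and 14.7% of genes in DKO. The differences did not pass the test, at 0.35 in NTC (95% interval 0.09 to 0.62, adjusted p = 0.0699) and 0.24 in DKO (95% interval −0.02 to 0.50, adjusted p = 0.563), nor in any of the 19 alternatives. Its last 45 bases lie over *Phrf1*, at 35.8 to 43.1 TPM, on the opposite strand.

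*Irf2* (ENSMUSG00000031627, chromosome 8, 46739732 to 46847458, plus strand), the repressor that competes with IRF1, ranged from 8.69 to 11.5 TPM over all 12 libraries, and its groups overlapped in every comparison. Its response was −0.07 in NTC (95% interval −0.27 to 0.12, adjusted p = 0.622) and 0.08 in DKO (95% interval −0.11 to 0.28, adjusted p = 0.822). Differences between genotypes were −0.16 untreated (adjusted p = 0.189) and −0.01 with IFNγ (adjusted p = 0.965).

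Set against *Irf2*, *Irf1* was below it in untreated NTC libraries, with log2 ratios of TPM of −0.49, −0.45 and −0.22, and above it in the other groups. The ratios were 1.00, 0.84 and 0.92 in NTC with IFNγ, 0.63, 0.49 and 0.01 in untreated DKO, and 1.41, 1.28 and 1.12 in DKO with IFNγ. Untreated DKO replicate 3 stood near equality, the lowest of its group. Mean log2 ratios were −0.39 ± 0.142 (SD, n = 3) and 0.92 ± 0.0767 in NTC without and with IFNγ, and 0.37 ± 0.323 and 1.27 ± 0.145 in DKO. The ratio rose by 1.31 with IFNγ in NTC and by 0.90 in DKO, and DKO exceeded NTC by 0.76 untreated and 0.35 with IFNγ. In each of these 4 comparisons no libraries overlapped, and the exact two-sided permutation test gave p = 0.1, the smallest that 3 against 3 allows (0.125 adjusted over 5 comparisons). For the difference of responses, −0.41, exact permutation of genotype labels within each treatment gave p = 0.345. Such shuffling does not remove the genotype differences of 0.76 and 0.35. It therefore cannot decide whether the responses of the ratio differed.

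**Figure D3:**
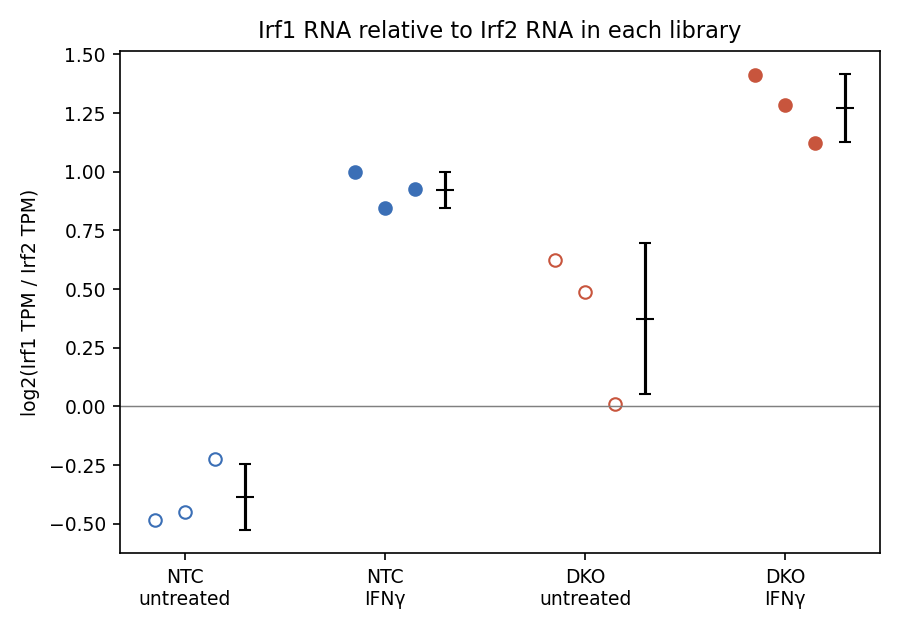
Log2 of *Irf1* TPM over *Irf2* TPM (vertical axis) in each library of the 4 groups (horizontal axis), with mean ± SD of 3 libraries; the line at 0 marks equal TPM. Untreated NTC libraries lie below 0 and all other libraries above it, from 0.01 in 1 untreated DKO library to 1.41 in a DKO library with IFNγ.

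*Irf8* (ENSMUSG00000041515, chromosome 8, 120736358 to 120756694, plus strand) was listed at 0 in all 6 libraries without IFNγ. With IFNγ the NTC libraries gave 0.595, 0.832 and 0.684 TPM, and the DKO libraries 0.623, 0.589 and 0 TPM. It was thus listed above 0 in 5 of the 6 treated libraries, and DKO replicate 3 with IFNγ was the exception. In the fit without a filter on low values, its difference with IFNγ was called in NTC (limma, adjusted p = 0.0209) and not in DKO (adjusted p = 0.359). The difference of responses did not pass (adjusted p = 0.647). *Irf8* entered that fit only through its treated libraries, so the call restates the listed values and adds no support for a response. The lack of a call in DKO cannot be separated from the library listed at 0. TPM keep no counts, so how many reads lie behind these values is unknown and no fold is given. GENCODE M21 also places *Gm20388*, a protein-coding gene on the same strand, over all 20337 bases of *Irf8*, and it has no row in the matrix, so how reads of that stretch were assigned is not known. Summed TPM of 14 leukocyte markers was 3.46 to 3.995 in untreated NTC, 4.06 to 6.07 in treated NTC, 5.56 to 6.71 in untreated DKO and 7.66 to 9.71 in treated DKO libraries, with *Ptprc*, which encodes CD45 of leukocytes, at 0. Of the 14, *Cd68*, of lysosomes in macrophages, and *Flt3*, a cytokine receptor, entered the fit. *Cd68* was higher in DKO, by 0.45 untreated (adjusted p = 0.0194) and 1.10 with IFNγ (adjusted p = 3.27e-05), and *Flt3* by 0.67 untreated (adjusted p = 0.00526). *Cd68* was also higher with IFNγ in DKO, by 0.83 (adjusted p = 0.00551), and its untreated call between genotypes was lost without replicate 2 of untreated DKO and without replicate 2 or 3 of untreated NTC. The part of leukocyte RNA in the *Irf8* values was not tested.

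*Irf5* (ENSMUSG00000029771, chromosome 6, 29526625 to 29541871, plus strand), which acts in myeloid cells below Toll-like receptors, lay near 1 TPM. NTC values were 0.817, 1.06 and 0.918 TPM untreated, then 0.954, 0.823 and 0.998 TPM with IFNγ. It was at 1.03, 1.02 and 0.994 TPM in untreated DKO and 1.64, 0.9752 and 0.812 TPM in treated DKO libraries. The groups overlapped in every comparison, and the value of 1.64 TPM stood above the other 11. Its responses were −0.00 in NTC (adjusted p = 0.989) and 0.07 in DKO (adjusted p = 0.925). The last 1045 bases of *Irf5* overlap *Tnpo3*, a nuclear import receptor, on the opposite strand, and *Tnpo3* was at 97.2 to 108.5 TPM. Reads of that stretch cannot be assigned by strand either.

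*Irf4* (ENSMUSG00000021356, chromosome 13, 30749226 to 30766976, plus strand) was detected at a low level in every library. NTC libraries gave 0.272, 0.212 and 0.250 TPM untreated and 0.368, 0.354 and 0.257 TPM with IFNγ. DKO libraries gave 0.332, 0.323 and 0.199 TPM untreated and 0.244, 0.237 and 0.217 TPM with IFNγ. Treated DKO libraries lay below treated NTC libraries, and the other comparisons overlapped. It was not called in any comparison without the filter.

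The pigment programme to which *Irf4* belongs was high by contrast. Of 15 genes listed for it, 14 were tested. In untreated DKO 13 were lower and 1 was higher than in NTC, where 19.4% and 17.0% of all tested genes were. Their median was −0.48 beside −0.01 over all tested genes. With IFNγ, 10 were lower and 1 higher in DKO, where 23.9% and 19.5% of all tested genes were. The median was −0.47 beside −0.01. *Tyrp1*, *Dct* and *Pmel*, which make melanin or its fibrils, were lower in untreated DKO by −0.58 (adjusted p = 6.3e-07), −0.73 (adjusted p = 5.71e-09) and −0.54 (adjusted p = 7.13e-07). *Gpnmb*, a melanosome glycoprotein, was lower by −0.16 (adjusted p = 0.00164). The gene named for its exception, *Mc1r*, the melanocortin receptor, was higher by 0.22 (adjusted p = 0.0373), which held in 13 of 19 alternatives (adjusted p 0.0172 to 0.153), and was chosen after its values were seen. It was lost without a filter, with the replicate block and when replicate 1 or 3 of untreated NTC or untreated DKO was left out. For IFNγ in NTC 5 of the 14 were higher and 1 lower, where 7.31% and 4.78% of all tested genes were. All of these NTC calls were lost with the GC and length trend removed. They held in 8 (*Sox10*) to 18 (*Mitf*) of 19 alternatives. In DKO 1 was higher, *Pmel*, where 0.677% of all tested genes were, and its call held in 6 of 19 alternatives.

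Summed over the 8 members, *Irf* RNA was 49.6 ± 3.03 TPM (SD, n = 3) in untreated NTC, 63.3 ± 0.578 in treated NTC, 58.8 ± 0.650 in untreated DKO and 74.4 ± 1.21 in treated DKO libraries. The sum was 1.28 times higher with IFNγ in NTC and 1.26 times in DKO, and its make-up moved in both. The share of *Irf3* went from 48.3% to 29.96% in NTC and from 49.6% to 34.6% in DKO. *Irf1* went from 16.6% to 30.4% in NTC and from 20.99% to 32.9% in DKO, and *Irf9* from 7.36% to 16.4% and from 7.75% to 13.2%. *Irf2* held 21.7% of the sum in untreated NTC and 13.6% in treated DKO.

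**Figure D4:**
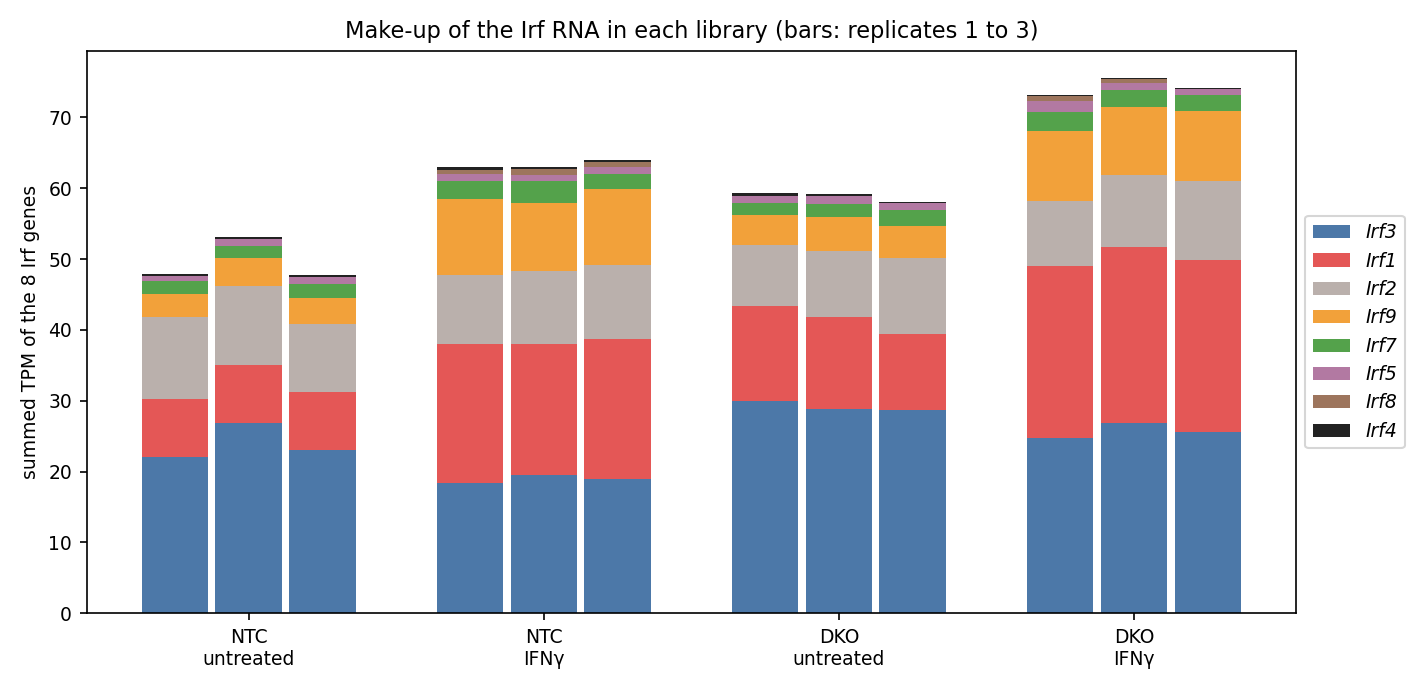
Summed TPM of the 8 *Irf* genes (vertical axis) in each library, 3 bars per group (horizontal axis), with a colour per gene. *Irf3* holds 45.9% to 50.6% of the sum in the 6 untreated libraries and *Irf1* takes up most of the growth with IFNγ, reaching 29.4% to 33.1%.

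By level, untreated NTC cells ran *Irf3*, *Irf2*, *Irf1*, *Irf9*, *Irf7*, *Irf5*, *Irf4* and *Irf8*, and no neighbours in that order overlapped. In NTC with IFNγ *Irf1* and *Irf3* overlapped at the top, at means of 19.3 and 19.0 TPM, followed by *Irf9* and *Irf2*, which overlapped at 10.4 and 10.2 TPM. Untreated DKO cells differed from untreated NTC cells in that *Irf1*, at 12.4 TPM, stood above *Irf2*, at 9.53 TPM. In treated DKO cells *Irf3*, at 25.8 TPM, stayed above *Irf1*, at 24.4 TPM, although the lowest *Irf3* and the highest *Irf1* value both rounded to 24.8 TPM. *Irf2* and *Irf9* overlapped there, as did *Irf8* and *Irf4*.

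Upstream of the members, 8 of 9 genes listed for the IFNγ receptor, JAK and STAT step were tested. With IFNγ 2 were higher in NTC and 1 in DKO, where 7.31% and 0.677% of all tested genes were. Medians were 0.12 and 0.01 beside 0.02 and 0.01 over all tested genes. *Stat3*, a factor of cytokine signalling, rose by 0.39 in NTC (adjusted p = 0.000168) and 0.32 in DKO (adjusted p = 0.0017). *Ifngr2*, a receptor chain, was higher in DKO by 0.60 untreated (adjusted p = 1.88e-05) and 0.44 with IFNγ (adjusted p = 0.000222). *Jak1* was not called in any of the 5 comparisons, and *Ptpn2*, a phosphatase that acts on JAK1, was lower in DKO with IFNγ by −0.17 (adjusted p = 0.0122), a call lost with equal library totals and with the GC and length trend removed (adjusted p up to 0.931 and differences from −0.19 to 0.01 over 19 alternatives). *Stat2*, the partner of IRF9, was higher with IFNγ in NTC by 0.36 (adjusted p = 0.0309) and gave 0.22 in DKO (adjusted p = 0.473). It was named after its values were seen, and its call held in 12 of 19 alternatives, being lost with any untreated or treated NTC library left out and with the replicate block.

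Of 16 genes for the activation of IRF3 and IRF7, 13 were tested. With IFNγ 2 were higher in NTC and 1 in DKO, where 7.31% and 0.677% of all tested genes were. Medians were 0.06 and 0.04 beside 0.02 and 0.01 over all tested genes. Between genotypes, 5 were higher and 3 lower in untreated DKO, with a median of 0.04 beside −0.01 over all tested genes. Of all tested genes 36.4% were called, 17.0% higher and 19.4% lower. With IFNγ 6 were higher and 2 lower in DKO, with a median of 0.20 beside −0.01. Of all tested genes 43.3% were then called, 19.5% higher and 23.9% lower. Among the lower calls, that of *Mavs* untreated held in 7 of 19 alternatives. That of *Irak4* held in 16 untreated and 6 with IFNγ. *Tmem173*, which encodes the sensor adaptor STING, was higher in DKO by 0.44 untreated (adjusted p = 3.38e-05) and 0.45 with IFNγ (adjusted p = 2.76e-05). *Traf6*, a ubiquitin ligase of Toll-like receptor signalling, was lower by −0.55 (adjusted p = 3.78e-05) and −0.50 (adjusted p = 7.13e-05). *Tbk1*, a kinase of IRF3, was not called in any comparison, and *Irak1*, a kinase below Toll-like receptors, was higher in DKO with IFNγ by 0.22 (adjusted p = 0.00766). *Ifnb1*, the interferon that IRF3 and IRF7 induce, was listed at 0 in every library.

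Downstream, 7 of 10 genes listed as IRF1 targets were tested. With IFNγ 5 were higher in each genotype, where 7.31% of all tested genes were in NTC and 0.677% in DKO. Medians were 2.55 in NTC and 1.79 in DKO beside 0.02 and 0.01 over all tested genes. *B2m*, the light chain of MHC class I, rose by 2.58 in NTC (adjusted p = 4.13e-12) and 1.95 in DKO (adjusted p = 8.32e-11), and the responses differed by −0.63 (adjusted p = 0.0256). That difference was called in 10 of 18 alternatives (adjusted p 0.000444 to 0.102) and was lost without any 1 of the untreated NTC libraries, treated NTC replicates 2 or 3, untreated DKO replicates 2 or 3, or treated DKO replicate 1. *Psmb9*, an immunoproteasome subunit, rose by 2.55 and 1.46, a difference of −1.09 (adjusted p = 0.0256). It was called in 6 of 18 alternatives (adjusted p 0.018 to 0.11), being lost with a pseudocount of 0.1 and in 11 of the 12 fits that left out 1 library, the exception being treated NTC replicate 3. *Tap1*, a peptide transporter, rose by 2.66 and 1.79, and that difference, −0.87, did not pass (adjusted p = 0.0709). *Gbp2*, a guanylate-binding protein, rose by 2.83 and 2.55 (difference −0.28, adjusted p = 0.496). Between genotypes, 1 of the 7 was higher and 2 were lower in untreated DKO, where 17.0% and 19.4% of all tested genes were. With IFNγ 4 were lower in DKO and the other 3 were not called, where 23.9% of all tested genes were lower and 19.5% higher. The higher untreated call, *Tap1*, held in 13 of 19 alternatives (adjusted p up to 0.134). Calls of *Cd274*, lower in DKO, held in 16 of 19 untreated and 13 of 19 with IFNγ (adjusted p up to 0.113 and 0.0776). The other calls between genotypes held in all 19.

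Of 12 genes listed as ISGF3 targets, 9 were tested. With IFNγ 7 were higher in NTC and 5 in DKO, where 7.31% and 0.677% of all tested genes were. Medians were 0.93 and 0.79 beside 0.02 and 0.01 over all tested genes. Of the 7 calls in NTC, that of *Oasl2* held in 3 of 19 alternatives. In untreated DKO, 4 were higher than in NTC and 1 was lower, with a median of 0.12, where 17.0% of all tested genes were higher and 19.4% lower. With IFNγ 2 were higher in DKO and 1 lower, with a median of 0.10, where 19.5% of all tested genes were higher and 23.9% lower. *Isg15*, a ubiquitin-like modifier, rose by 1.36 in NTC (adjusted p = 2.74e-05) and 0.87 in DKO (adjusted p = 0.00306), and was higher in DKO by 0.58 untreated (adjusted p = 0.00365), while with IFNγ the genotypes differed by 0.10 (adjusted p = 0.583). *Ifit3*, an antiviral RNA-binding factor, rose by 1.15 and 0.98 and was higher in untreated DKO by 0.65 (adjusted p = 0.00457). *Rsad2*, which encodes viperin, rose by 1.04 in both genotypes, and *Ifit2* was not called in any comparison. No gene of the list was called for a difference of responses. The GAAA repeat occurred in windows of 6 of 9 ISGF3 targets and 2 of 6 IRF1 targets with a RefSeq window, and in 3.99% of all genes with one.

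**Figure D5:**
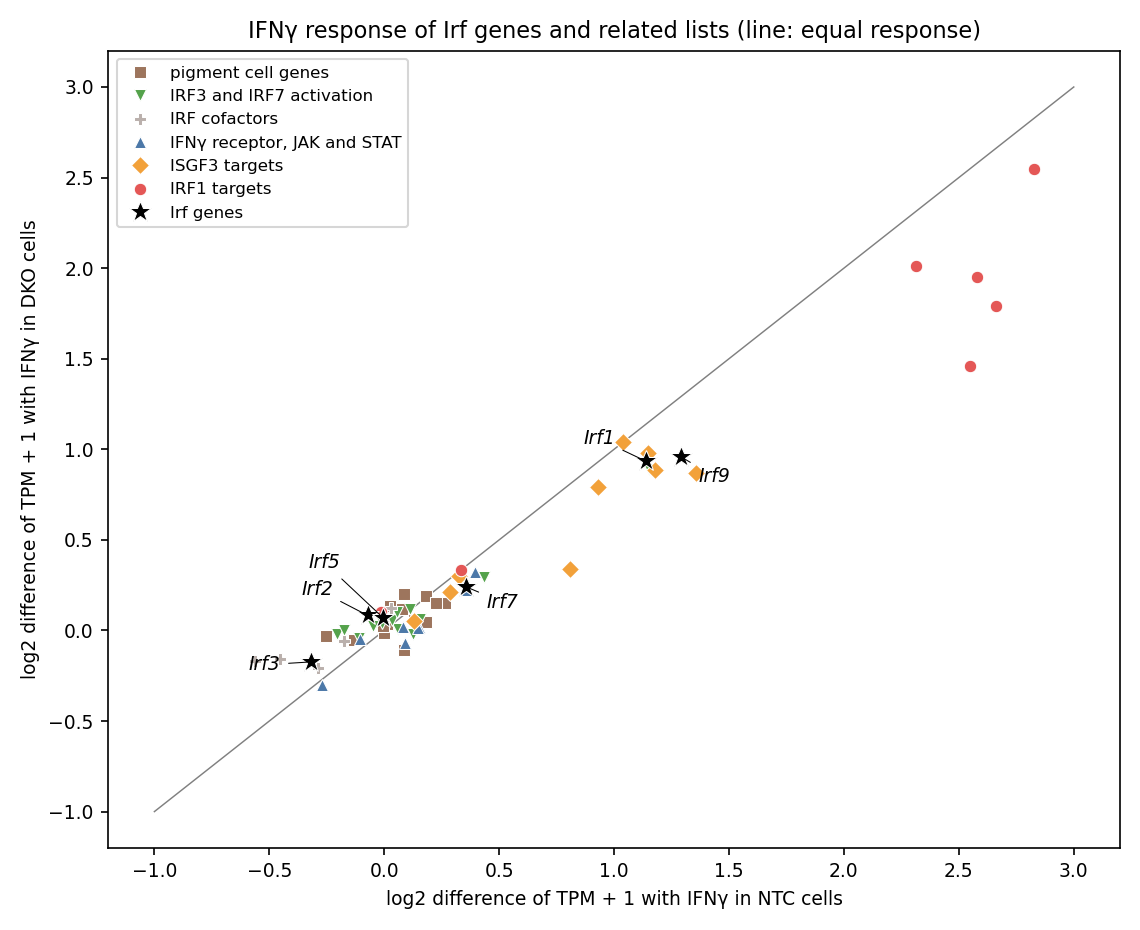
Log2 difference of TPM + 1 with IFNγ in NTC (horizontal axis) and DKO cells (vertical axis) for tested *Irf* genes (stars) and tested genes of 6 lists; the line marks equal responses. *Irf1* and *Irf9* lie among the ISGF3 targets, and 5 IRF1 targets lie past 2.3 in NTC, all under the line.

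Among 7 cofactor genes, 5 were tested, with medians for IFNγ of −0.29 in NTC and −0.16 in DKO beside 0.02 and 0.01 over all tested genes. There was 1 call, lower in NTC, where 4.78% of all tested genes were lower. *Irf2bp1*, a corepressor that binds IRF2, was lower with IFNγ in NTC by −0.56 (adjusted p = 0.0288) and gave −0.17 in DKO (adjusted p = 0.767). *Irf2bp2* was not called in any comparison. Between untreated genotypes the adjusted p of the 5 ran from 0.0648 to 0.927. With IFNγ 3 were higher in DKO than in NTC, where 19.5% of all tested genes were. They were *Irf2bp1* by 0.42 (adjusted p = 0.0351), *Irf2bpl* by 0.60 (adjusted p = 0.00756) and *Batf3*, a partner of IRF8 in dendritic cells, by 0.53 (adjusted p = 0.0336). Of the 19 alternatives, 13 held each of the *Irf2bp1* calls and 12 that of *Batf3*. The *Irf2bp1* calls and that of *Batf3* were all lost with the GC and length trend subtracted, without a filter, and when treated NTC replicate 2 or 3 was left out. The *Irf2bpl* call held in all 19 (adjusted p 0.00222 to 0.0389). The *Irf2bp1* call for IFNγ in NTC was also lost without replicate 2 or 3 of untreated NTC, that between genotypes without replicate 1 or 2 of treated DKO, and that of *Batf3* without any 1 of the treated DKO libraries.

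Across the 12 libraries, the genes whose log2(TPM + 1) followed *Irf1* most closely were *Cadm1*, *Irgm1* and *Gbp7*, with Pearson's r of 0.986, 0.983 and 0.981. For *Irf9* they were *Irgm2*, *Psmb10* and *Nlrc5*, with r of 0.992, 0.987 and 0.986. *Irf3* was closest to *Gse1*, *Hdac7* and *Kif26a*, with r of 0.968, 0.965 and 0.963. The nearest genes of the other tested members were less close, with r up to 0.884 for *Irf7*, 0.879 for *Irf5* and 0.814 for *Irf2*. *Irf1* and *Irf9* themselves gave r = 0.939. These points share libraries and the 2 conditions that move many genes, so the values describe likeness only. In bulk RNA, fewer responding cells and less RNA per cell cannot be told apart for any member.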

How the data were processed

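The authors deposited TPM per gene for each of the 12 libraries, with poly(A)-selected, unstranded reads estimated by RSEM 1.2.4, modified to call Bowtie, and unaligned reads passed to TopHat, per their methods and processing notes, on GRCm38. A scaling between libraries is not stated. TPM keep no depth, so precision comes from the spread between replicates. Columns of the file outside the 12 libraries numbered 0.

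The limma 3.58.1 fit (R 4.3.3) took log2(TPM + 1), 1 mean per condition and a variance trend, for genes that reached 1 TPM in 3 or more libraries, and was first tested on simulated data. Python 3.11.15 with pandas 2.3.3, numpy 2.4.6, matplotlib 3.10.9 and scipy 1.17.1 made tables and figures. Members, lists, tests and alternatives were chosen with earlier results of these data known. Named genes were all members in every library, the 4 tested genes of highest mean TPM in each list, and the 3 genes closest to each tested member by Pearson's r. Coordinates came from GENCODE M21. No library was left out. 1 gene of the receptor, JAK and STAT list and 1 of the leukocyte marker list are not reported here.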

Additional observations from a re-analysis of the deposited data

How the results depend on the processing

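Alternatives were no filter, a pseudocount of 0.1, a replicate block, leaving out 1 library at a time, fitting a comparison on its own 6 libraries, median-ratio scaling, equal library totals and, added after seeing the data, subtraction of the trend on GC content and length (known for 11563 of 11663 tested genes). Counts of members called kept within 1.5 times in all of them. Of the values for single members 570 kept their side of the threshold, 3 lost the call and 1, *Irf8* without a filter, gained it. Among the 570 were uncalled values near 0 that changed sign, such as that of *Irf2* between genotypes with IFNγ (−0.07 to 0.07). The lost calls were *Irf3* for IFNγ in NTC with the GC and length trend removed (−0.22) and *Irf9* in untreated DKO without untreated NTC replicate 1 (0.20) or untreated DKO replicate 2 (0.22), and the cause was not tested. No direction reversed among called values. The number of all tested genes called for IFNγ in NTC, 1411, fell to 897 without a filter and 518 with the trend removed, and ran from 319 (without treated NTC replicate 3) to 2020 (without treated DKO replicate 2), while genes called for a difference of responses went from 4 to 10 without a filter and to 2 with the replicate block, with 0 to 7 as libraries were left out. The number called for IFNγ in NTC was 335 without replicate 2 of treated NTC, and 394 or 348 without replicate 2 or 3 of untreated NTC. Same-numbered libraries did not deviate together: 4 of 18 pairs had r over 0.1, between −0.18 and 0.18, and 3 of 12 libraries correlated best with their own number, so the replicate block is an alternative only. With it, 3 members were called for IFNγ in NTC, 2 in DKO, 0 for the difference of responses, 3 between untreated genotypes and 2 with IFNγ, and the Irf1 to Irf2 ratio rose by 1.31 in NTC (exact sign-flip p = 0.25, the smallest that 3 pairs allow). Without counts, values under 1 TPM (*Irf4*, *Irf8*) have no stated precision.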
